A study of Homo sapiens with 18 samples.

Results

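TJP3, BCAS1, TSPAN8 and DSC3 are 4 genes known from epithelia that were measured here in U937, a long-established human monocytic line from a histiocytic lymphoma, after treatment with chromatin drugs. They are 4 of the 14884 genes that the annotation used here could name on the Affymetrix Human Gene 2.0 ST array. Each is read by 1 probe set that carries its symbol, and ranks among all genes refer to these 14884. The genes were picked by name with their levels in all groups in view, so those levels and the differences between groups are a description and carry no test. There were 18 arrays in 6 groups of 3. The groups were decitabine, panobinostat, valproic acid, decitabine plus panobinostat, decitabine plus valproic acid, and a control without any of these agents. Per the labels, decitabine went on in 3 pulses of 24 h, and in the combinations the other agent was present for 24 h alongside the final pulse. How long panobinostat and valproic acid were given alone is not said there. Comparisons of a combination with its inhibitor, and with the sum of its agents, therefore assume an equal exposure. The labels attach the numbers 50, 8 and 1 to decitabine, panobinostat and valproic acid with no unit, so panobinostat and valproic acid are not taken as given at matched doses. All groups share the same cell line and culture medium, and the labels leave unsaid if the arrays of one group stem from separate cultures, so the spread between them may be technical.

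Decitabine is a cytidine analogue that is built into DNA, traps DNA methyltransferases and so lowers the methylation of CG dinucleotides in dividing cells. Panobinostat and valproic acid block histone deacetylases, which raises histone acetylation, and the questions the design poses are what each agent does alone and what it adds to the other. Epithelial sheets are held together by tight junctions, where claudins and occludin seal the space between cells and ZO scaffold proteins tie them to actin, and by desmosomes, where desmogleins and desmocollins are anchored through plakoglobin and desmoplakin to keratin filaments. TJP3 encodes ZO-3, one of the ZO scaffolds. DSC3 encodes desmocollin 3, a desmosomal cadherin of the basal layers of stratified epithelia. TSPAN8 is a tetraspanin, a membrane protein with several passes that gathers partner proteins into microdomains, and is best known from the gut epithelium and its carcinomas. BCAS1 was named for its amplification in breast carcinoma and is also a marker of oligodendrocytes that are starting to form myelin.

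RefSeq (GRCh38.p14) promoter windows, which run from 250 bases before to 50 bases after a transcription start, were at hand for 3 of the 4 genes, as 5 windows. They are shown because CG dinucleotides are the sites methylated by the enzymes that decitabine traps, and each CG is set in capitals. TJP3 has 2 start sites on the plus strand of chromosome 19, at chr19:3708134-3708433 (window 1) and chr19:3721487-3721786 (window 2). TSPAN8 has overlapping windows on the minus strand of chromosome 12, of which chr12:71157950-71158249 (window 2) is printed. DSC3 has 1 window on the minus strand of chromosome 18, at chr18:31042693-31042992. The sequences run 5′ to 3′ along the gene.
TJP3 window 1: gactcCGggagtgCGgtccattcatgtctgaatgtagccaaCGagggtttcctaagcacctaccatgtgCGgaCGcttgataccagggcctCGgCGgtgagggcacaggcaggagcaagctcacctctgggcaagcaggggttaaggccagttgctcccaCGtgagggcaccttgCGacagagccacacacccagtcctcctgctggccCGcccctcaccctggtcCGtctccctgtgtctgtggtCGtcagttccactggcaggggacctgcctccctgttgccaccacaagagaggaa
TJP3 window 2: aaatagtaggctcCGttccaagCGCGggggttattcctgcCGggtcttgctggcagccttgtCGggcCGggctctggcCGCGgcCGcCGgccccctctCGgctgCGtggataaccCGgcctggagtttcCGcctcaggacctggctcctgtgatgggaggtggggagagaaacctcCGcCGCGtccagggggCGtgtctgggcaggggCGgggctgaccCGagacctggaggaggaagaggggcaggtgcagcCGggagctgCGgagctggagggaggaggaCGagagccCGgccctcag
TSPAN8 window 2: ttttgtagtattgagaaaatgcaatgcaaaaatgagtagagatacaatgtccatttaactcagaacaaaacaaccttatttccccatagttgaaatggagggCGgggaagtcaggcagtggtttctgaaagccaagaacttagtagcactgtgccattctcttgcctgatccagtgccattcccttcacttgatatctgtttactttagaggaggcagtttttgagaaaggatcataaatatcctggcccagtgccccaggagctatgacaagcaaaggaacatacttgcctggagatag
DSC3: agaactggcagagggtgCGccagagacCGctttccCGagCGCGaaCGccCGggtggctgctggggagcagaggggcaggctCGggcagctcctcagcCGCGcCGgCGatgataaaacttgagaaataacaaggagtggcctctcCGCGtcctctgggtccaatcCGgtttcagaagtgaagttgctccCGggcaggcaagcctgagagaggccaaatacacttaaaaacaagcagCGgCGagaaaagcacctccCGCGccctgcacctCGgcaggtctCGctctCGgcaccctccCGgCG

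The windows differed widely in CG content. TJP3 window 1 held 12 CG dinucleotides and window 2 held 24, against a median of 14 over 35116 RefSeq windows of 300 bases. The DSC3 window held 25, and 67.97% of all windows held fewer. Both TSPAN8 windows were poor in CG, with 3 in window 1 and 1 in window 2, and only 18.2% and 3.96% of all windows held fewer than these. The letters of an E-box bound by SNAI and ZEB repressors of epithelial genes, CAGGTG or CACCTG, occurred once, in TJP3 window 2 at 7 bases before the start (-7), and are found in 20.59% of all windows. The GC-box core GGGCGG or CCGCCC occurred at -42 and -45 in the TJP3 windows and at -151 in TSPAN8 window 2, and is found in 44.95% of windows. TATAAA or its reverse complement TTTATA was in none of the 5 windows and is in 11.53% of all. All motifs were read on both strands, and no match of one motif overlapped one of another. DNA methylation was not measured on these arrays.

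**Figure D1:**
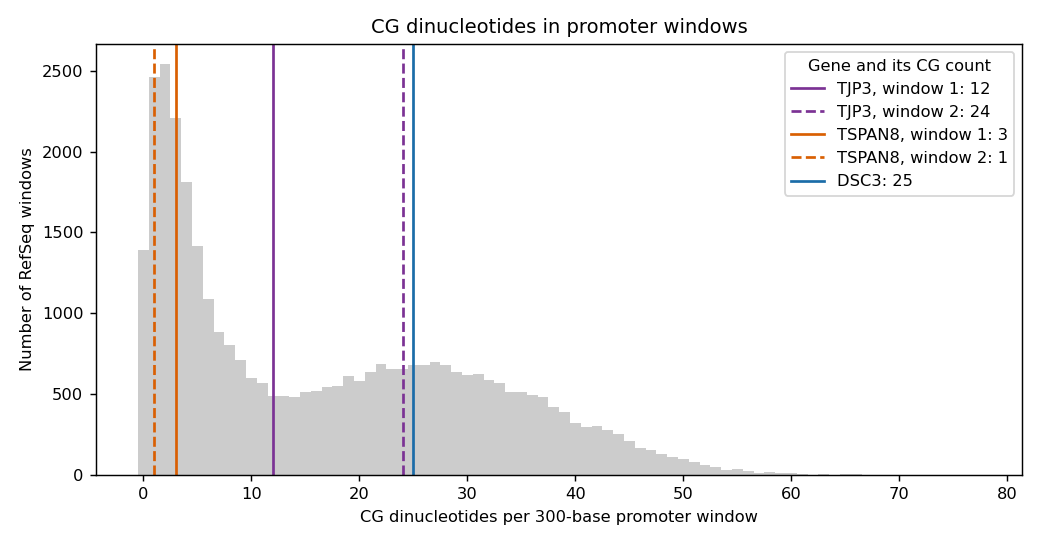
Number of RefSeq promoter windows (y axis) by the count of CG dinucleotides in the 300 bases of the window (x axis), as grey bars over 35116 windows. Lines mark the windows of TJP3 (12 and 24), DSC3 (25) and TSPAN8 (3 and 1), and show TSPAN8 in the CG-poor part and DSC3 and TJP3 window 2 in the CG-rich part of the distribution.

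The deposited values are log2 signals. Over all arrays they ran from 2.29 to 14.57 with a median of 3.84, and arrays of 1 group correlated across genes at 0.985 to 0.992. The monocytic identity of the cells was visible in the control, where 12 of 15 measured monocyte markers lay above the median of all values, among them MPO at 12.28, LYN at 10.80 and CD4 at 9.74, while CD14 (3.45), VCAN (3.30) and S100A8 (3.74) lay below it. Of 8 measured epithelial cell markers 1, KRT18 at 6.69, lay above that median in control, and EPCAM, KRT8, KRT19, CLDN4, CLDN7, ESRP1 and GRHL2 lay below it. The 4 genes themselves sat in the lower part of the table in control: 41.31% of named genes had a lower control level than TJP3, 37.36% than TSPAN8, 21.41% than DSC3 and 18.01% than BCAS1. This is another measure than the median of all values, which covers every probe set, named or not, and which TJP3 exceeded at 3.97. By the share of named genes below them, the monocyte markers CSF1R (47.8%) and S100A9 (47.73%) lay under the middle too. Signals this low are compressed by background, so fold changes from them can be understated. A level on a bulk array cannot tell a few cells with much RNA from many cells with a little.

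TJP3, the tight junction scaffold on chromosome 19 (probe set 16857021), was highest in both combinations. Its levels on the 3 arrays were 3.87, 4.13 and 4.26 with decitabine and 4.68, 4.30 and 5.35 with panobinostat. With valproic acid they were 5.71, 4.93 and 5.13. After decitabine plus panobinostat they were 7.01, 7.09 and 7.70. Those after decitabine plus valproic acid were 6.04, 6.40 and 7.35, against 3.98, 3.81 and 4.10 in control. Each array of a combination thus lay above every array of the single agents and of the control. The group means were 7.27 ± 0.38 for decitabine plus panobinostat, 6.60 ± 0.68 for decitabine plus valproic acid, 5.26 ± 0.40 for valproic acid, 4.78 ± 0.53 for panobinostat, 4.09 ± 0.20 for decitabine and 3.97 ± 0.15 for control (SD, n = 3 each). In this order the combinations overlapped each other, valproic acid overlapped panobinostat, and decitabine overlapped control. Both inhibitors alone gave levels above every control array.

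Against control, TJP3 was higher by 3.30 log2 units (SE 0.31), which is 9.86-fold, after decitabine plus panobinostat. This was the 33rd largest difference upward among 14884 genes. After decitabine plus valproic acid it was higher by 2.63, or 6.19-fold. Valproic acid alone gave 1.29 (2.44-fold), panobinostat alone 0.81 (1.75-fold) and decitabine alone 0.12, all with the same SE of 0.31. The step from decitabine to its combinations was where TJP3 stood out most: decitabine plus panobinostat exceeded decitabine by 3.18, the 3rd largest upward difference of all genes, and decitabine plus valproic acid exceeded it by 2.51, the 4th largest. Against the inhibitor alone the combinations were higher by 2.49 for panobinostat and by 1.34 for valproic acid.

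BCAS1 (probe set 16920475, chromosome 20) was near its lowest level without decitabine and was high only where decitabine was given. It read 4.29, 5.02 and 5.17 with decitabine. It read 3.34, 3.22 and 3.39 with panobinostat and 3.35, 3.52 and 3.47 with valproic acid. After decitabine plus panobinostat it read 7.36, 7.16 and 7.84. After decitabine plus valproic acid it read 5.28, 6.86 and 7.30, against 3.43, 3.42 and 3.50 in control. All 9 arrays with decitabine lay above all 9 arrays without it. The combinations overlapped each other, and both lay above decitabine alone, by a narrow margin for replicate 1 of decitabine plus valproic acid. The 3 groups without decitabine lay close together at 3.32 ± 0.09 for panobinostat, 3.45 ± 0.08 for valproic acid and 3.45 ± 0.05 for control (SD, n = 3 each). Valproic acid overlapped both other groups, while every panobinostat array was below every control array.

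The BCAS1 mean of 7.45 ± 0.35 after decitabine plus panobinostat exceeded control by 4.0 (SE 0.36), which is 16.0-fold, the 18th largest upward difference of all genes. The mean of 6.48 ± 1.06 after decitabine plus valproic acid exceeded control by 3.03, or 8.17-fold. Decitabine alone, at 4.83 ± 0.47, exceeded control by 1.37, or 2.59-fold. The changes with panobinostat alone (-0.13) and valproic acid alone (-0.005) were smaller than the SE, which pools the spread of all groups. Adding panobinostat to decitabine was accompanied by a further 2.63, and adding valproic acid by a further 1.66. Replicate 1 of decitabine plus valproic acid set the lower end, and without it that group exceeded control by 3.63, decitabine by 2.26 and valproic acid by 3.64. The difference of 0.97 between the combinations was 0.37 without that array.

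**Figure D2:**
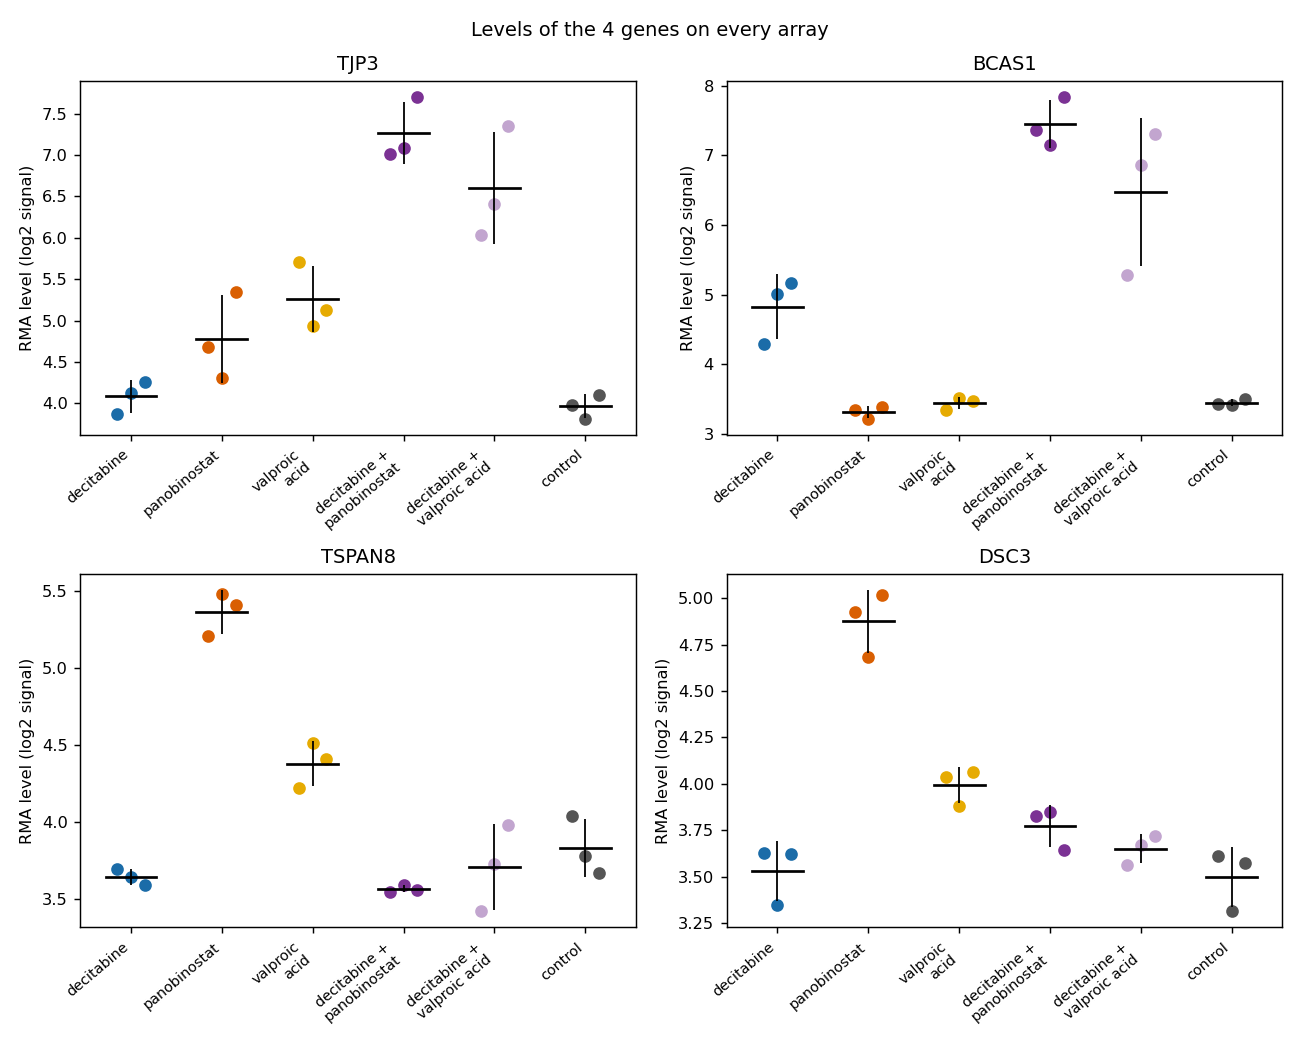
RMA level (log2 signal, y axis, scaled separately per gene) of TJP3, BCAS1, TSPAN8 and DSC3 on each of the 18 arrays, by treatment group (x axis). Points are arrays, horizontal lines group means and vertical lines ± SD over 3 arrays. TJP3 and BCAS1 are highest in the combinations (means of 7.27 and 7.45 after decitabine plus panobinostat), TSPAN8 and DSC3 with panobinostat alone (5.37 and 4.87).

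TSPAN8 (probe set 16767513, chromosome 12) was highest under panobinostat alone. Its levels were 3.70, 3.64 and 3.59 with decitabine, 5.21, 5.48 and 5.41 with panobinostat, and 4.22, 4.51 and 4.41 with valproic acid. After decitabine plus panobinostat they were 3.55, 3.59 and 3.56. They were 3.42, 3.73 and 3.98 after decitabine plus valproic acid, against 4.04, 3.78 and 3.67 in control. The panobinostat arrays lay above all others, and the valproic acid arrays above the remaining 4 groups. Decitabine plus panobinostat, at 3.57 ± 0.02, lay below every control array and overlapped decitabine, and the levels of decitabine (3.64 ± 0.05), decitabine plus valproic acid (3.71 ± 0.28) and control (3.83 ± 0.19) overlapped from one to the next (SD, n = 3 each).

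Panobinostat alone exceeded control in TSPAN8 by 1.54 (SE 0.14), or 2.90-fold, and valproic acid by 0.55, or 1.47-fold. With decitabine present neither inhibitor was accompanied by a higher level. Decitabine plus panobinostat differed from decitabine by -0.08 and decitabine plus valproic acid by 0.07, both within the SE of 0.14. Set against the inhibitor alone, TSPAN8 was lower by 3.48-fold (-1.80 on the log2 scale) after decitabine plus panobinostat, the 3rd largest downward difference among 14884 genes in that comparison. Decitabine plus valproic acid against valproic acid gave -0.67. Decitabine alone differed from control by -0.19 and decitabine plus panobinostat by -0.26, the second of which was -0.43 with the arrays shifted to a common median.

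DSC3, the desmosomal cadherin on chromosome 18 (probe set 16854466), was likewise highest under panobinostat alone. It read 3.63, 3.35 and 3.62 with decitabine, 4.92, 4.69 and 5.02 with panobinostat, and 4.04, 3.88 and 4.06 with valproic acid. After decitabine plus panobinostat it read 3.83, 3.85 and 3.64. It read 3.56, 3.67 and 3.72 after decitabine plus valproic acid, against 3.61, 3.31 and 3.58 in control. Panobinostat (4.87 ± 0.17) lay above every other array, valproic acid (3.99 ± 0.10) above all arrays of the other 4 groups, and decitabine plus panobinostat (3.77 ± 0.11), decitabine plus valproic acid (3.65 ± 0.08), decitabine (3.53 ± 0.16) and control (3.50 ± 0.16) overlapped in that order (SD, n = 3 each). Decitabine plus panobinostat nevertheless lay above all 3 control arrays.

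Against control, DSC3 was higher by 1.38 (SE 0.12), or 2.59-fold, with panobinostat and by 0.49 with valproic acid. The differences were 0.03 with decitabine, 0.27 after decitabine plus panobinostat and 0.15 after decitabine plus valproic acid, the last 2 of which were 0.11 and -0.0086 with the arrays shifted to a common median. DSC3 after decitabine plus panobinostat lay 1.10 below panobinostat alone (log2 change -1.10, the 68th largest downward difference of all genes), and after decitabine plus valproic acid -0.34 relative to valproic acid alone. The 2 inhibitors differed from each other in the same direction in TSPAN8 and DSC3: panobinostat exceeded valproic acid by 0.99 in TSPAN8 and by 0.88 in DSC3, the 15th and 23rd largest upward differences of that comparison. In TJP3 panobinostat differed from valproic acid by -0.48 with an SE of 0.31, and in BCAS1 by -0.13 with an SE of 0.36.

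The 4 genes therefore fall into 2 pairs when the combination is set beside the sum of its agents. For TJP3 the changes with decitabine alone and panobinostat alone sum to 0.93, and the combination gave 3.30, a surplus of 2.37 (SE 0.44). For BCAS1 the sum was 1.24 and the combination 4.0, a surplus of 2.76 (SE 0.51). These were the 5th and 3rd largest surpluses of all genes. For TSPAN8 the sum was 1.35 and the combination -0.26, a shortfall (difference -1.62, SE 0.19) that was the 12th largest of all genes, and for DSC3 the sum was 1.41 and the combination 0.27 (difference -1.13, SE 0.17). With valproic acid the signs were the same and the sizes smaller: 1.22 for TJP3, 1.66 for BCAS1, -0.49 for TSPAN8 and -0.38 for DSC3, against sums of 1.41, 1.37, 0.37 and 0.53. Without replicate 1 of decitabine plus valproic acid the value for BCAS1 was 2.26. These differences are on the log2 scale, so a value of 0 means that the folds multiply.

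**Figure D3:**
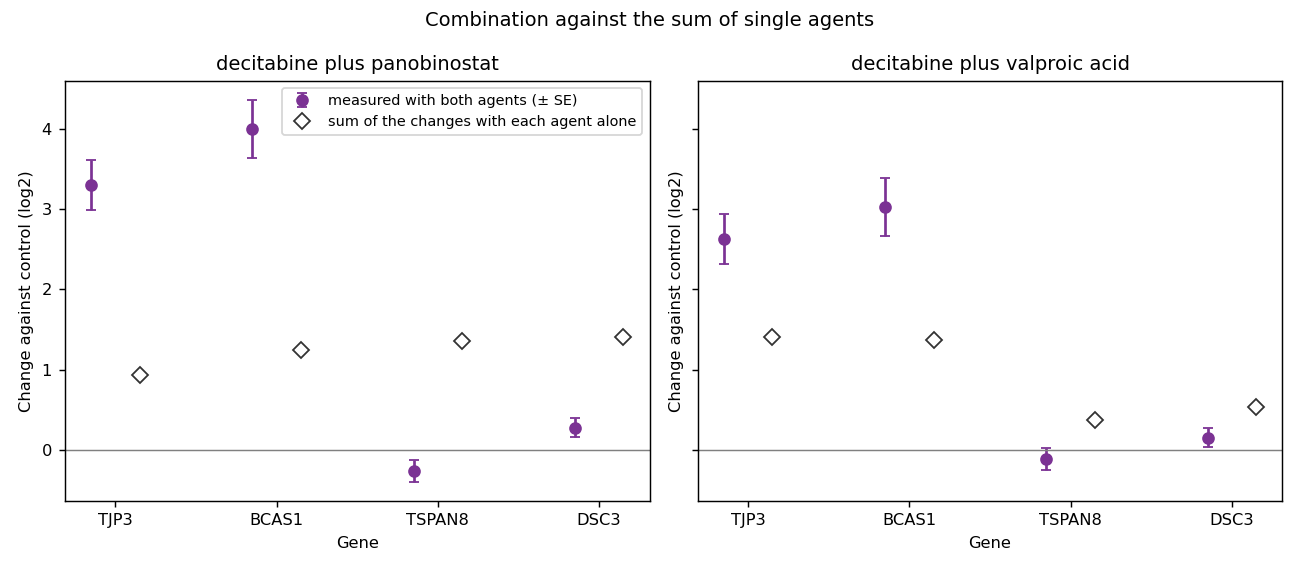
Change against control (log2, y axis) for each gene (x axis) in decitabine plus panobinostat (left) and decitabine plus valproic acid (right). Filled circles are the measured change with both agents ± SE, and open diamonds the sum of the changes with each agent alone. The SE pools the spread of all groups (3 arrays each). It is therefore the same in both panels for a given gene and does not show the spread within a combination. The circles lie above the diamonds for TJP3 and BCAS1 (3.30 against 0.93 and 4.0 against 1.24 with panobinostat) and below them for TSPAN8 and DSC3 (-0.26 against 1.35 and 0.27 against 1.41).

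Across the 18 arrays TJP3 and BCAS1 correlated at Pearson r = 0.82 (Spearman rho 0.59), and TSPAN8 and DSC3 at r = 0.91 (rho 0.66). Across the pairs the values were -0.59 for BCAS1 with TSPAN8 (rho -0.79), -0.37 for BCAS1 with DSC3 and -0.25 for TJP3 with TSPAN8. TJP3 with DSC3 gave -0.005 by Pearson and 0.38 by Spearman. The arrays share the group effects and fall into groups, so these are descriptions of the same profiles given above. The genes also varied to different degrees within groups: the residual SD was 0.43 for TJP3 and 0.50 for BCAS1, above the median of 0.19 over all genes, and 0.16 for TSPAN8 and 0.14 for DSC3, below it. The span of the 6 group means was 4.13 in BCAS1, 3.30 in TJP3, 1.80 in TSPAN8 and 1.38 in DSC3, against a median of 0.42 over all genes, and was larger in 17, 39, 325 and 733 genes.

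The families of the 4 genes were then read from lists of junction, keratin, tetraspanin and epithelial genes, with the 4 genes themselves left out. A gene is called higher or lower where limma's Benjamini-Hochberg adjusted p over all 14884 genes was under 0.05 against control. By this rule 2.57% of all genes were called higher and 1.39% lower with decitabine, 3.92% higher and 3.47% lower with panobinostat, 4.73% higher and 2.74% lower with valproic acid, 11.2% higher and 12% lower after decitabine plus panobinostat, and 8.9% higher and 8.06% lower after decitabine plus valproic acid. The 5 comparisons share the control arrays.

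Of 43 other tight junction genes measured, 0 were called with decitabine and 0 with panobinostat, 1 higher with valproic acid, 3 higher after decitabine plus panobinostat, and 2 higher and 1 lower after decitabine plus valproic acid. These shares are at or under the background, and the median change of the list after decitabine plus panobinostat was 0.03, beside -0.02 over all genes. The gene of this list with the largest rises was CLDN10, a claudin that forms ion-selective pores. It averaged 6.22 after decitabine plus panobinostat and 6.20 after decitabine plus valproic acid, against 3.51 in control, and rose by 2.71 (SE 0.26, adjusted p = 1.53e-06) and 2.69 (adjusted p = 2.89e-06). With decitabine alone it changed by 0.75 (adjusted p = 0.133). CLDN7, another claudin, rose by 1.14 after decitabine plus panobinostat and 0.98 after decitabine plus valproic acid (SE 0.31). The first of these calls was lost without replicate 2 of decitabine plus panobinostat, and the second in 7 of 26 alternatives. PARD6B, a cell polarity adaptor, rose by 1.10 after decitabine plus panobinostat. CGNL1, the junctional protein paracingulin, changed by -1.20 after decitabine plus valproic acid (SE 0.35, adjusted p = 0.0283), and ILDR2, of the angulin family of tricellular junctions, rose by 0.80 with valproic acid. TJP1, which encodes the related scaffold ZO-1, differed from its control level of 3.22 by -0.01 to 0.06 and was not called.

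Of 21 other genes of the desmosome and cornified envelope, 0 were called with decitabine. With panobinostat and with valproic acid 1 was called higher, the same gene, JUP. After decitabine plus panobinostat 1 was higher and 1 lower, and after decitabine plus valproic acid 2 were higher. The shares called higher in these groups were 4.76%, 4.76%, 4.76% and 9.52%, beside 3.92%, 4.73%, 11.2% and 8.9% of all genes. The share called lower after decitabine plus panobinostat was 4.76%, beside 12%. JUP encodes plakoglobin, which sits in desmosomes and adherens junctions, and its rise was 0.87 with panobinostat (SE 0.24, adjusted p = 0.0379), 1.43 with valproic acid, 1.92 after decitabine plus panobinostat (adjusted p = 2.66e-05) and 1.69 after decitabine plus valproic acid. The call with panobinostat was lost in 5 of 26 alternatives. PKP4, a plakophilin-related armadillo protein, was lower after decitabine plus panobinostat (-0.81). DSC2, the desmocollin beside DSC3 on chromosome 18, was called after decitabine plus valproic acid at 0.41 (SE 0.13), a call lost in 19 of 26 alternatives. The desmosomal genes DSC1, DSG1, DSG2 and DSP were not called in any comparison with control.

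Tetraspanins other than TSPAN8 were called upward in both combinations, where TSPAN8 lay low. Of 31 measured, 3 were higher with each of decitabine, panobinostat and valproic acid, 6 were higher and 1 lower after decitabine plus panobinostat, and 7 were higher after decitabine plus valproic acid. The shares called higher in the combinations, 19.4% and 22.6%, stand beside 11.2% and 8.9% of all genes. The share with each single agent, 9.68%, stands beside 2.57%, 3.92% and 4.73%. CD53, a tetraspanin of leukocytes, rose with every treatment, by 1.10 with decitabine, 1.78 with panobinostat, 1.14 with valproic acid, 1.80 after decitabine plus panobinostat and 1.43 after decitabine plus valproic acid (SE 0.13, highest adjusted p = 5.37e-05). TSPAN7 likewise rose with all 5, by 0.85 to 1.5, although its call with panobinostat was lost in 5 of 26 alternatives. CD9, which is found on platelets, leukocytes and epithelia, rose in the combinations, by 1.92 after decitabine plus panobinostat (SE 0.18, adjusted p = 1.43e-06) and 1.35 after decitabine plus valproic acid. TSPAN15, a partner of the protease ADAM10, rose by 1.03 and 1.14 in the same groups. CD82 was called with panobinostat (1.49) and after decitabine plus panobinostat (1.41). All of these tetraspanins were called higher after decitabine plus panobinostat, so none of them could lie near control there as TSPAN8 did. TSPAN33 was called with valproic acid only (0.70), a call lost in 5 of 26 alternatives. It changed by 0.02 with decitabine and 0.51 with panobinostat. Its changes were 0.22 after decitabine plus panobinostat and 0.54 after decitabine plus valproic acid.

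Of 24 keratins, the filament proteins that desmosomes anchor, 1 was called higher with decitabine, 2 with panobinostat, 2 with valproic acid and 3 with each combination, and 0 were lower. They were KRT23, KRT9 and KRT12. The shares called higher with the single agents were 4.17%, 8.33% and 8.33%, beside 2.57%, 3.92% and 4.73% of all genes. With each combination the share was 12.5%, beside 11.2% and 8.9% of all genes. KRT23 rose with all 5 treatments, most after decitabine plus panobinostat (4.23, SE 0.23, adjusted p = 4.02e-09) and decitabine plus valproic acid (3.53). KRT9, a keratin of the skin of palms and soles, rose by 2.45 with panobinostat (SE 0.29) and by 2.11 to 2.18 with valproic acid and the combinations, and changed by 0.45 with decitabine, where it was not called. KRT12, a corneal keratin, rose by 1.82 after decitabine plus panobinostat and 1.21 after decitabine plus valproic acid. The keratins of simple epithelia, KRT8, KRT18 and KRT19, were not called in any comparison with control. The median change of the list after decitabine plus panobinostat was 0.04.

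Of 7 measured adherens junction genes 1 was higher with decitabine, 3 after decitabine plus panobinostat and 4 after decitabine plus valproic acid, and 0 with either inhibitor alone, among them NECTIN2, a nectin that is also expressed on myeloid cells (1.03, 1.22 and 1.58 in those 3 groups). The shares called higher in the combinations were 42.9% and 57.1% of these 7 genes, beside 11.2% and 8.9% of all genes. Of 30 measured genes of epithelial identity 0 were called with decitabine or panobinostat, 1 was higher with valproic acid, 4 were higher and 1 lower after decitabine plus panobinostat, and 3 were higher after decitabine plus valproic acid. The shares called higher in the combinations, 13.3% and 10%, were near the 11.2% and 8.9% of all genes. With valproic acid the share was 3.33%, beside 4.73%. EPCAM, an adhesion molecule of most epithelia, rose by 0.73 after decitabine plus panobinostat (SE 0.19, adjusted p = 0.0103), a call lost without replicate 1 of that group. CDS1, an enzyme of phosphatidylinositol synthesis, rose by 1.30 with valproic acid, 1.70 after decitabine plus panobinostat and 1.34 after decitabine plus valproic acid. The epithelial transcription factor GRHL2 and the splicing factor ESRP1 were not called. Summed over the 8 epithelial cell markers, arrays ran from 31.2 to 31.6 with decitabine, 31.7 to 32.8 with panobinostat, 31.0 to 32.6 with valproic acid, 33.1 to 34.8 after decitabine plus panobinostat and 32.4 to 34.4 after decitabine plus valproic acid, against 31.3 to 32.6 in control. All arrays of decitabine plus panobinostat, where TJP3 and BCAS1 were highest, lay above the control range of this sum, while every other treatment overlapped it. In that combination the sum was raised mainly by CLDN7 (1.14), EPCAM (0.73) and CLDN4 (0.33, not called). ESRP1 changed by 0.08, and KRT8, KRT18, KRT19 and GRHL2 by -0.11 to -0.02. The sum was within or below the control range with decitabine, where BCAS1 was higher by 1.37, and overlapped it with valproic acid, where TJP3 was higher by 1.29. Its part in the levels of the 4 genes was not tested. Several calls of these lists did not hold in all 26 alternatives, mostly where 1 array was left out: those of CGNL1 and ILDR2 were each lost in 5, that of PARD6B and that of GRHL1 in 2, that of NECTIN2 with decitabine in 4, that of CD82 with panobinostat in 3, and that of KRT12 after decitabine plus valproic acid in 1.

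**Figure D4:**
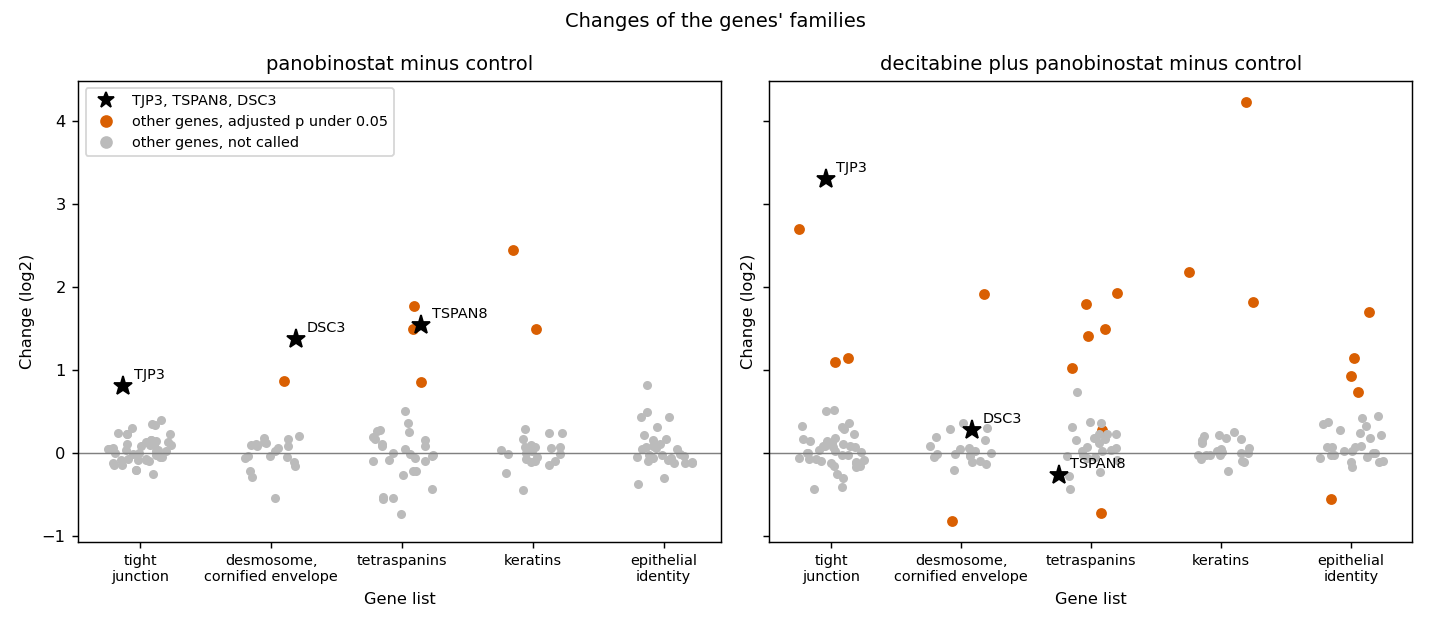
Change (log2, y axis) of every measured gene of 5 lists (x axis) for panobinostat minus control (left) and decitabine plus panobinostat minus control (right). Stars are TJP3, TSPAN8 and DSC3 in their lists, orange points other genes called at an adjusted p under 0.05 and grey points genes not called. Most genes of each list lie near 0, while TJP3 is at 3.30 in the right panel and TSPAN8 and DSC3 are at 1.54 and 1.38 in the left one.

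Of 12 measured repressors of epithelial genes, most of them transcription factors of the SNAI, ZEB, TWIST and E-protein families, 0 were called with decitabine or valproic acid and 1 was called higher in each other comparison. The share was 8.33% each time, beside 3.92%, 11.2% and 8.9% of all genes. With panobinostat the called gene was TCF4, which rose by 1.08 (SE 0.21, adjusted p = 0.00472). TCF4 changed by 0.69 with valproic acid, 0.38 after decitabine plus panobinostat and 0.07 after decitabine plus valproic acid, none of them called. In both combinations the called gene was SNAI1, at 0.91 after decitabine plus panobinostat and 0.83 after decitabine plus valproic acid (SE 0.26), calls lost in 2 and 5 of 26 alternatives. Both rises of SNAI1 came in the groups in which TJP3 was highest, and a link between the 2 genes was not tested. ZEB1 and TWIST1 lay below the median of all values in every group, ZEB2 lay at 7.22 in control, and none of these was called. Because BCAS1 marks oligodendrocytes, 17 measured genes of oligodendrocytes and myelin were read too. With decitabine, panobinostat and valproic acid 0 were called, after decitabine plus panobinostat 2 were higher and 1 lower, and after decitabine plus valproic acid 1 was lower. The share called higher after decitabine plus panobinostat was 11.8%, beside 11.2% of all genes. The share called lower in each combination was 5.88%, beside 12% and 8.06%. MBP, a major myelin protein, rose by 0.97 after decitabine plus panobinostat, MYRF, a regulator of myelin genes, by 0.71, and UGT8, an enzyme of myelin lipid synthesis, changed by -1.07 and -1.0 in the combinations, where it was called lower. The call of MYRF was lost in 6 of 26 alternatives and those of UGT8 in 3 and 4.

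Monocyte markers moved in the same arrays. Of 15 measured, 6 were higher with decitabine, 6 higher and 1 lower with panobinostat, 3 higher and 2 lower with valproic acid, and 7 higher and 2 lower with each combination. The shares called higher were 40%, 40%, 20%, 46.7% and 46.7% in that order, beside 2.57%, 3.92%, 4.73%, 11.2% and 8.9% of all genes. The shares called lower were 0%, 6.67%, 13.3%, 13.3% and 13.3%, beside 1.39%, 3.47%, 2.74%, 12% and 8.06% of all genes. The summed level of these markers ran from 111.4 to 114.0 with decitabine, 108.6 to 109.9 with panobinostat, 104.0 to 105.9 with valproic acid, 110.6 to 113.2 after decitabine plus panobinostat and 106.9 to 112.8 after decitabine plus valproic acid, against 100.3 to 102.8 in control. It was thus above control in all 5 treatments, including those in which TSPAN8 and DSC3 were low, and its part in the levels of the 4 genes was not tested. The markers did not all follow their sum. MPO, the brightest of them in control, changed by 0.03 with decitabine and was called lower in every group with an inhibitor. It changed by -0.73 with panobinostat, -0.79 with valproic acid, -0.93 after decitabine plus panobinostat and -0.55 after decitabine plus valproic acid.

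Genes with a profile like each of the 4 were named by Pearson r across the 18 arrays, among 1585 protein-coding genes whose group means span at least 1 on the log2 scale. Nearest to TJP3 was DHRS2, a short-chain dehydrogenase, at r = 0.96. DHRS2 averaged 8.15 after decitabine plus panobinostat and 7.14 after decitabine plus valproic acid, against 3.79 in control. CRISPLD2 (0.95), TMEM145 (0.94), MAPK3, the kinase ERK1 (0.94), and PLXDC1 (0.93) followed. Nearest to BCAS1 were ZNF280A (0.97), STPG1 (0.97), LDHD, the mitochondrial D-lactate dehydrogenase (0.97), KRT12 (0.96) and AKAP12, a kinase-anchoring scaffold (0.95). ZNF280A averaged 6.38 after decitabine plus panobinostat and 5.90 after decitabine plus valproic acid, against 3.20 in control.

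For TSPAN8 the nearest gene was DSC3 (0.91), and for DSC3 it was TSPAN8. SH3TC2 (0.90), CAVIN2, a coat protein of caveolae (0.88), PLB1, a phospholipase (0.88), and ALOX5AP, which is needed for leukotriene synthesis (0.86), came next for TSPAN8. The scavenger receptor CD36 (0.86), the growth factor BMP2 (0.86), PLB1 (0.85) and SH3TC2 (0.85) came next for DSC3. CAVIN2 was likewise higher with each inhibitor alone and near control in the combinations. It averaged 7.20 with panobinostat and 7.02 with valproic acid, and 5.79 after decitabine plus panobinostat and 5.73 after decitabine plus valproic acid, against 5.69 in control. Its rises with panobinostat (1.51) and valproic acid (1.33) were close, unlike those of TSPAN8 and DSC3. BMP2 differed from CAVIN2 in staying above control in the combinations, at 8.47 with panobinostat, 7.25 after decitabine plus panobinostat and 7.14 after decitabine plus valproic acid, against 5.96 in control. The choice of measure set much of these lists. With Spearman rho 2 of the 5 genes nearest to TJP3, 0 of those of BCAS1, 0 of TSPAN8 and 1 of DSC3 stayed among the first 5, and with r over the 6 group means 2, 0, 2 and 3 did.

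The nearest named genes in RefSeq order on each side of the 4 genes were read too. Genes without a named probe set are skipped and distances were not taken, so these genes do not show how far a profile extends. The next named gene to TSPAN8 on one side is LGR5, a receptor for R-spondins and a marker of intestinal stem cells. On the arrays LGR5 read 5.87, 6.57 and 6.42 with decitabine, 7.76, 8.04 and 7.89 with panobinostat, and 7.59, 7.51 and 8.02 with valproic acid. It read 7.92, 7.77 and 7.45 after decitabine plus panobinostat. After decitabine plus valproic acid it read 7.38, 7.22 and 7.48, against 3.71, 3.82 and 4.76 in control. Every treated array lay above every control array. LGR5 rose by 2.19 with decitabine (SE 0.24, adjusted p = 3.26e-05), 3.8 with panobinostat, 3.61 with valproic acid, 3.62 after decitabine plus panobinostat (adjusted p = 2.85e-08) and 3.27 after decitabine plus valproic acid. Its high level was thus kept in decitabine plus panobinostat, where its neighbour TSPAN8 lay below every control array, and the r between them was 0.35. On the other side RAB3IP, which activates RAB8 in vesicle transport, rose with panobinostat alone by 0.82 (SE 0.20, adjusted p = 0.0201, a call lost in 3 of 26 alternatives), changed by -0.03 after decitabine plus panobinostat, and correlated with TSPAN8 at 0.71. TMEM19 rose by 0.77 to 0.85 in the 4 groups that held an inhibitor. LRRC10, BEST3 and MRS2P2 were not called.

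**Figure D5:**
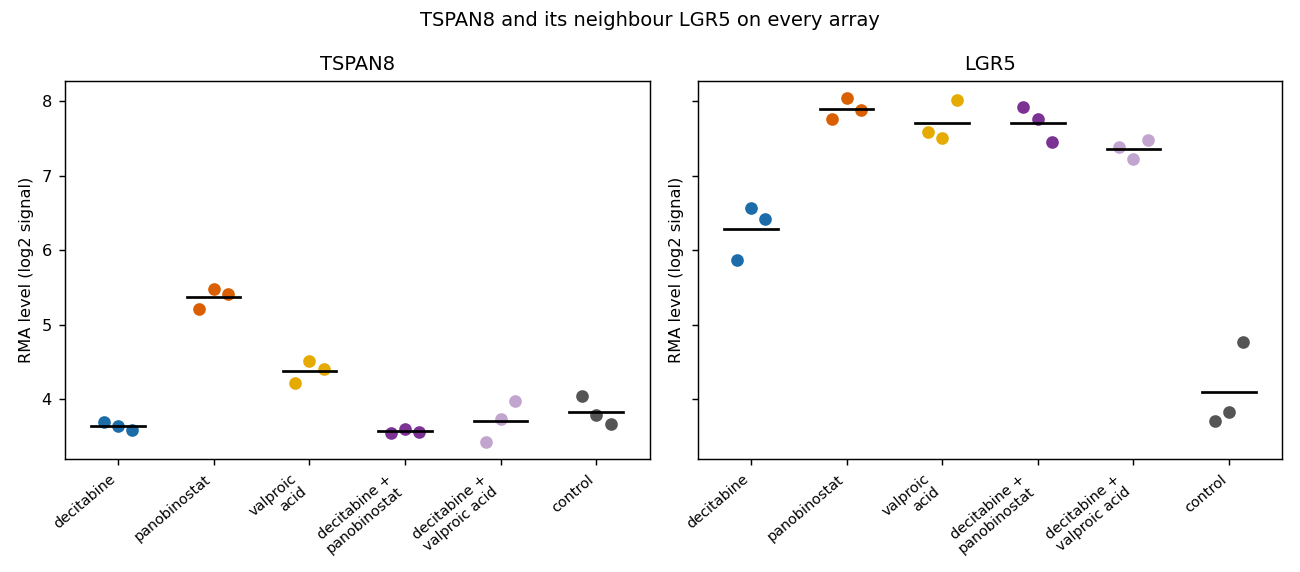
RMA level (log2 signal, y axis) of TSPAN8 (left) and of its neighbour LGR5 (right) on every array, by treatment group (x axis). Points are arrays and lines group means. LGR5 is between 7.22 and 8.04 in all 12 arrays with panobinostat or valproic acid, while TSPAN8 is high with panobinostat alone (5.21 to 5.48) and low in decitabine plus panobinostat (3.55 to 3.59).

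Beside TJP3, TBXA2R, the thromboxane receptor, rose with decitabine by 1.92 (SE 0.22, adjusted p = 4.86e-05), after decitabine plus panobinostat by 1.63 and after decitabine plus valproic acid by 1.48, and changed by -0.24 with panobinostat and 0.07 with valproic acid. TJP3 itself differed from control by 0.12 with decitabine alone. HMG20B, a chromatin protein, rose by 0.74 with valproic acid and 0.80 after decitabine plus valproic acid, calls lost in 18 and 5 of 26 alternatives. MRPL54, a mitochondrial ribosomal protein, was lower after decitabine plus panobinostat (-1.23, a call lost in 1 of 26 alternatives), and TEKTIP1, RAX2 and MATK were not called. Near BCAS1, ZNF217, a zinc finger repressor of the same amplified region of breast carcinomas, rose by 1.43 after decitabine plus panobinostat (SE 0.15, adjusted p = 4.51e-06). ZNF217 also rose with decitabine (0.65), panobinostat (0.57) and decitabine plus valproic acid (0.46), and these calls were lost in 5, 5 and 19 of 26 alternatives. The pseudogene SUMO1P1 was lower after decitabine plus valproic acid (-0.76), and MIR4756 (which lies within BCAS1), PFDN4, DOK5 and TSHZ2 were not called. Around DSC3 the desmosomal cadherin genes DSC2 and DSC1 and DSG1 behaved as given above, CHST9 was lower with valproic acid (-0.40, a call lost in 12 of 26 alternatives), and AQP4 and MIR302F were not called. Of the 3 named genes on each side of DSC3, none was called with panobinostat.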

How the data were processed

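The values used are the log2 signals that the authors deposited, made with RMA, which corrects background, quantile-normalizes the arrays and summarises probes, per the submitters' processing notes; its version is not given in the sources used here. Of 48226 probe sets, 16098 carried 1 symbol in the array's annotation table, 0 several and 32128 none. Symbols were updated by gene identifier to RefSeq. For the 779 genes on several probe sets, the brightest on average was taken. The table then held 14884 genes, of which 11916 code for protein, and dim genes were kept.

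All 18 arrays entered one limma fit with a mean per group (limma 3.58.1 in R 4.3.3), with empirical Bayes moderation and 12 residual degrees of freedom. Each SE comes from this fit. Adjusted p-values are Benjamini-Hochberg over all genes, and the 5 treatments against control were tested for the gene lists. In all, 13 comparisons are described for the 4 genes, with no test. Precision is limited by the number of arrays.

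The 4 genes and the lists were chosen with earlier results of these data known. Named genes are the 4 genes, the 5 protein-coding genes most like each, up to 4 called genes with the largest change per list and comparison, 3 neighbours on each side, the measured repressors, and markers. Lists hold only genes with a named probe set: 44 of 52 tight junction, 22 of 24 desmosome and cornified envelope, 7 of 20 adherens junction, 24 of 27 keratin, 32 of 33 tetraspanin, 30 of 47 epithelial identity, 12 of 13 repressor, 17 of 22 oligodendrocyte and 15 of 25 monocyte genes. CDH1 was on no named probe set used here. Motifs and CG dinucleotides were counted in RefSeq windows of GRCh38.p14. Replicate numbers were not taken as pairs, since deviations from the group mean correlated at -0.11 to 0.10 in the 45 pairs of arrays with the same number. The alternatives were 8 other settings and leaving out each of the 18 arrays in turn.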

Additional observations from a re-analysis of the deposited data

Results flagged for a closer look

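BCAS1 and TSPAN8 stood out because the effect of panobinostat had opposite signs with and without decitabine, with every array that had panobinostat on one side of the mean of the group without it. For TSPAN8 in the presence of decitabine the arrays of the 2 groups nevertheless overlapped. In BCAS1 panobinostat was accompanied by a change of 2.63 on the log2 scale in cells that also had decitabine and of -0.13 in cells that did not, a difference of 2.76. In TSPAN8 the change was -0.08 with decitabine and 1.54 without it, a difference of -1.62. The SE of these differences is 0.51 for BCAS1 and 0.19 for TSPAN8. The differences were not tested, because both genes were chosen with these levels in view, and the small values of -0.13 and -0.08 are within the SE of a change of 0.36 and 0.14. That SE pools the spread of all groups. For BCAS1 the SD was 0.09 with panobinostat and 0.05 in control, against 1.06 after decitabine plus valproic acid. Every panobinostat array of BCAS1 lay below every control array.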

How the results depend on the processing

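Of 520 values of the 4 genes against control under the alternatives, 516 moved by less than the spread between replicates. The median level of the named genes was higher than in control by 0.17 in decitabine plus panobinostat and by 0.16 in decitabine plus valproic acid. With arrays shifted to a common median, TSPAN8 differed from control by -0.43 (in place of -0.26) and DSC3 by 0.11 (in place of 0.27) with decitabine plus panobinostat, and DSC3 by -0.0086 (in place of 0.15) with decitabine plus valproic acid. Leaving out 1 array at a time gave 2.62 to 3.63 for BCAS1 with decitabine plus valproic acid, the lower value without replicate 3 and the higher without replicate 1 of that group. The count of genes called ranged from 361 (without control replicate 2) to 632 with decitabine, from 659 (without control replicate 3) to 1205 with panobinostat and from 508 (without valproic acid replicate 1) to 1227 with valproic acid, beside 590, 1100 and 1112 with all arrays. With every probe set tested, named or not, 1358, 2210, 2107, 7015 and 5099 of 48226 were called for the 3 single agents in the order above and then for the combinations with panobinostat and valproic acid. A replicate block gave 586, 1104, 1107, 3463 and 2551 genes called in the same order, beside 590, 1100, 1112, 3447 and 2524. In all, 8 of 18 arrays lay closest to arrays of their own number, which cannot settle whether the numbers mark a shared run. In TJP3 and BCAS1 replicate 3 was the highest array in every group but valproic acid. List counts moved in 147 of 2340 alternatives, by 1 to 3 genes. Of 152 calls of named genes, 109 held in all 26 alternatives and 7 were lost in 10 or more. The causes of these moves were not tested. With 3 arrays a group and control levels near background, small changes of low genes such as DSC3 could not be resolved.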
